A study of Homo sapiens with 18 samples.

Results

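Chromatin accessibility was examined at 10 genes of the extracellular matrix other than the collagens: the crosslinking enzymes LOX, LOXL1, LOXL2, LOXL3 and LOXL4, and the matrix proteins FN1, ELN, FBN1, POSTN and TNC. Members were all consensus ATAC-seq peaks that overlap the body of one of these genes, or the 10 kb upstream of it, in the GENCODE release 44 annotation of hg38. This gave 161 of the 334857 peaks measured: 43 at FBN1, 39 at LOXL2, 23 at TNC, 18 at ELN, 14 at FN1, 11 at LOXL1, 6 at LOXL3, 5 at LOXL4 and 1 each at LOX and POSTN. The rule that assigns peaks to genes uses positions alone. Peaks are named by gene and by their order along the chromosome, so that FBN1_peak_1 is the FBN1 peak with the lowest coordinate.

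Accessibility was measured by bulk ATAC-seq, in which a transposase enters open DNA and tags it for sequencing. The cells were Ccd18-Co fibroblasts, an established line from human colon. The 18 libraries formed 3 groups of 6. The group labelled unstimulated stands for cells without the cytokine pulses, and the sources used here do not say whether it was given the solvent. Both stimulated groups were given 3 pulses of TNF, OSM and IL-17A at 10 ng/ml each and IL-1β at 0.1 ng/ml, each pulse lasting 72 h with 96 h of recovery. After 1 week of rest they received either the solvent DMSO or 250 nM belinostat, an inhibitor of histone deacetylases, for 5 days, and nuclei were taken 2 weeks after that. These concentrations are those of the labels. The study's figure legends name more belinostat, and its methods, in places, less IL-1β. The methods also state that solvent was kept at a constant dilution in all treatment groups, without saying whether unstimulated cells were among these. The cells come from 1 line, and the labels do not say that the 6 libraries of a group were separate cultures, so p-values measure the spread between these libraries, which may be technical.

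In the matrix, fibronectin (FN1) is assembled by cells into fibrils on which other components are laid down, fibrillin-1 (FBN1) forms the microfibrils that scaffold elastic fibres, and elastin (ELN) is their elastic core. Lysyl oxidase (LOX) and its relatives LOXL1 to LOXL4 oxidise lysine side chains of collagen and elastin, which then crosslink and stiffen the fibres. Periostin (POSTN) and tenascin-C (TNC) are matricellular proteins, best known from tissue that is healing or remodelling, and in the intestine the products of fibroblasts make up much of the scar of a fibrotic wall.

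Counts in peaks totalled 4661678 to 11352032 per library, and the member peaks took 4199 to 10594 of them, or 0.0788% to 0.0966%. All 9 fibroblast markers examined, COL1A1 and VIM among them, had a peak at their start, with the strongest such peak at percentiles 85.0 to 99.8 of all peaks. So had 3 of 5 epithelial markers (47.6 to 86.7, none at CDX1 and KRT20), 3 of 4 immune markers (18.3 to 94.7, none at CD79A), all 3 endothelial markers (33.8 to 86.5) and all 3 muscle markers (67.0 to 97.3). Start peaks of CDH1 (86.7), TEK (86.5), CD14 (94.7) and ACTG2 (97.3) were stronger than those of the fibroblast markers DCN (85.0) and COL3A1 (86.2). Strong peaks, those with an average of at least 3 log2 CPM (counts scaled to the library total), held 63.2% ± 1.91 (SD, n = 6) of the counts in unstimulated libraries, 57.1% ± 2.05 (SD, n = 6) in DMSO libraries and 53.9% ± 3.68 (SD, n = 6) in belinostat libraries. This share moved with the groups, and its part in the results was not tested. Unstimulated 6 had the highest share of its group (66.6%), as had belinostat 1 (59.9%), and calls of named loci and peaks that turn on either library are given with and without it. Bulk counts cannot separate a change in the share of cells with an open site from a change in how open the site is in each cell.

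Levels are given as log2 CPM with a prior count of 2 and factors from the trimmed mean of M values (TMM) over all peaks. Because the libraries differed in the share of counts in strong peaks, many changes are set beside a second estimate with loess offsets. These offsets remove the trend of each library with peak strength and by design bring the typical peak or gene of each strength close to 0. A value was called where edgeR's quasi-likelihood test gave a Benjamini-Hochberg adjusted p under 0.05 over all 334857 peaks, or over all 19180 protein-coding gene loci with a peak. A locus is the sum of counts over the peaks of a gene. The DMSO minus unstimulated difference is called the cytokine contrast, belinostat minus DMSO the belinostat contrast, and belinostat minus unstimulated the residual contrast. The cytokine and belinostat contrasts share the DMSO libraries, and the cytokine and residual contrasts share the unstimulated ones.

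Most member peaks lay inside introns. Of the 161 peaks, 102 were intronic, 21 lay in exons, 15 upstream, 10 at the start of a gene's canonical transcript and 13 at another annotated start. FBN1 (chr15:48408313-48645721, minus strand) had its 43 peaks spread over a locus of 247 kb, and LOXL2 had 39 over 138 kb. LOX (chr5:122063195-122078413, minus strand) had a single peak of 2030 bp over its start. The only peak of POSTN (chr13:37562583-37598844, minus strand) lay 4091 bp upstream and held 55 counts in all 18 libraries together. No peak lay within 500 bp of the canonical start of ELN (chr7:74027789-74069907, plus strand) or of POSTN. Some peaks cannot be given to 1 gene: 15 of the LOXL2 peaks also fall in the ENTPD4 locus, and peaks of LOXL3 (chr2:74532258-74555690, minus strand) overlap DOK1, M1AP, AUP1 and DQX1. Long non-coding genes also overlap the peaks of LOXL1, LOXL2, FN1, ELN, FBN1 and TNC.

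Per kb of peak, LOXL1 (chr15:73925989-73952137, plus strand) was the most accessible locus and POSTN the least. In unstimulated libraries the level in log2 CPM per kb of peak was 5.01 ± 0.16 (SD, n = 6) for LOXL1, followed by LOXL2 at 4.29 ± 0.13, LOXL3 at 4.06 ± 0.13, FN1 at 3.69 ± 0.08, LOX at 3.63 ± 0.13, FBN1 at 3.57 ± 0.10, LOXL4 at 3.37 ± 0.12, ELN at 3.16 ± 0.12, TNC at 3.00 ± 0.15 and POSTN at 2.16 ± 0.74. FN1 and LOX, and LOX and FBN1, differed by less than the larger SD of the pair, and the other neighbours in this order by more. A single start peak carried 72.9% of the LOXL3 signal and 56.7% of that of FN1 (chr2:215360440-215436073, minus strand), whereas the strongest of the LOXL2 peaks, LOXL2_peak_16 in intron 3, carried 11.8%.

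**Figure D1:**
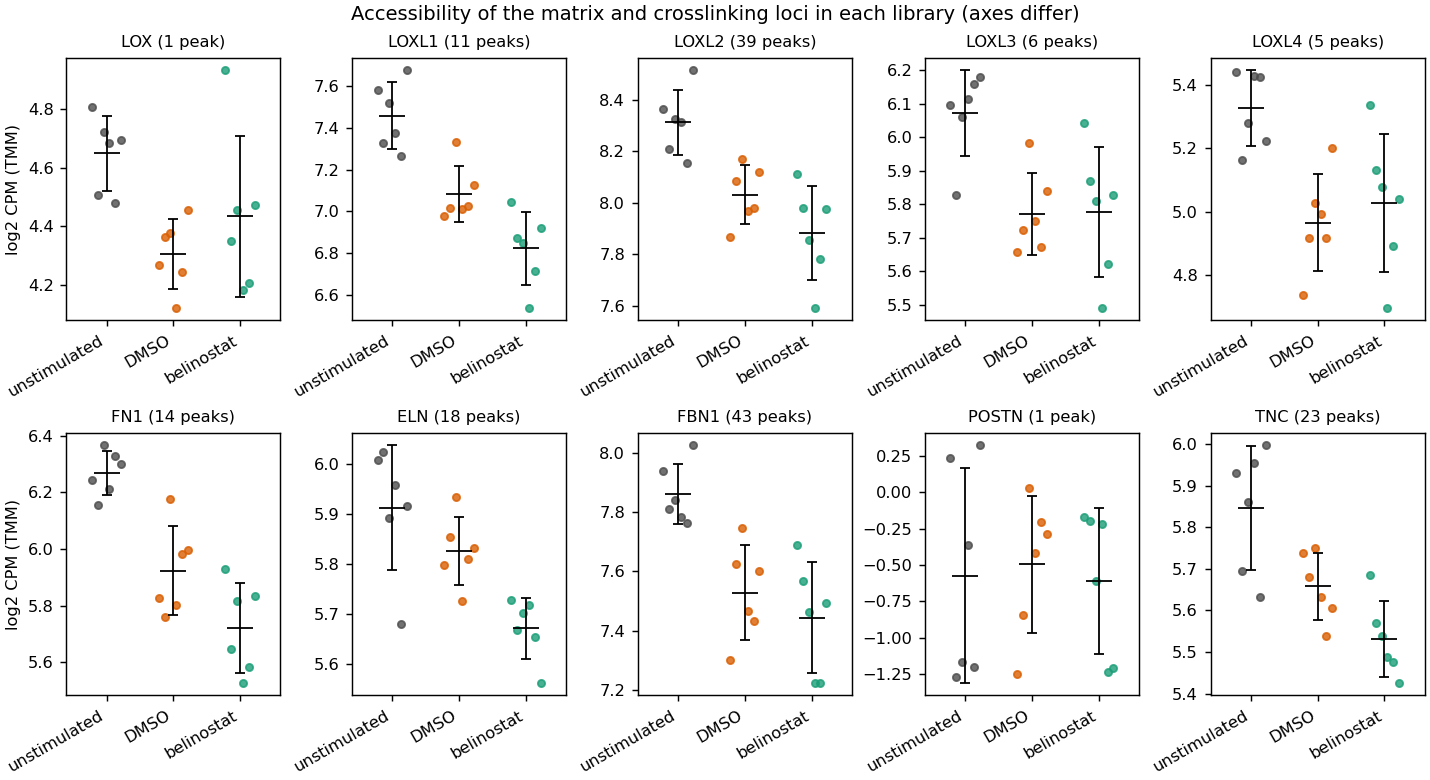
Summed accessibility of each locus in log2 CPM (TMM), 1 point per library, with the mean and SD of the 6 libraries of a group as a bar, and an axis of its own for each gene. Unstimulated libraries lie highest at most loci, DMSO and belinostat libraries overlap at all of them, and LOX holds 1 belinostat library at 4.93 above its group.

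The sequences below are those of 4 intronic peaks among those called in the belinostat contrast under both scalings, and of the LOX promoter, since the only LOX peak covers it. Each peak is shown by the 200 bases of hg38 around its centre, plus strand. The LOX promoter is given by 300 bases from RefSeq (GRCh38.p14, minus strand), and LOX is 1 of the 8 member genes with a promoter in the table used. RefSeq lists other LOX promoters under the same peak, and the one printed has the highest coordinates. Capitals mark the only short word found in the printed sequences, ACCACA, the reverse complement of the RUNX core TGTGGT.
FBN1_peak_37, chr15:48611544-48611743: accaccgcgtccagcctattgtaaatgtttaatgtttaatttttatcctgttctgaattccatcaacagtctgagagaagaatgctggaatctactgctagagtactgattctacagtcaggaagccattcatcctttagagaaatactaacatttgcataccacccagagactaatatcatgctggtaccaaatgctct
FBN1_peak_17, chr15:48493570-48493769: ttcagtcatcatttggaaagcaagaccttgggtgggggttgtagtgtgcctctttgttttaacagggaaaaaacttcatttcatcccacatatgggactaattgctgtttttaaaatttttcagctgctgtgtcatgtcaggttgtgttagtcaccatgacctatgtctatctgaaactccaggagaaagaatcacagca
FBN1_peak_11, chr15:48453861-48454060: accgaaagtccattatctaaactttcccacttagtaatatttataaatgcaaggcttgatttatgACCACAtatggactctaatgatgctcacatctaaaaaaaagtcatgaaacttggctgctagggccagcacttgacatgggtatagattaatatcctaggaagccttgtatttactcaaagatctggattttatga
LOXL1_peak_6, chr15:73930661-73930860: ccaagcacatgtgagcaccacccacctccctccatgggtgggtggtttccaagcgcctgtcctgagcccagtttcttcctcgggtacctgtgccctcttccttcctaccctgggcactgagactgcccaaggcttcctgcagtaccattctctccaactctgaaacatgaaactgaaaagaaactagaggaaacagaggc
LOX promoter, chr5:122078210-122078509: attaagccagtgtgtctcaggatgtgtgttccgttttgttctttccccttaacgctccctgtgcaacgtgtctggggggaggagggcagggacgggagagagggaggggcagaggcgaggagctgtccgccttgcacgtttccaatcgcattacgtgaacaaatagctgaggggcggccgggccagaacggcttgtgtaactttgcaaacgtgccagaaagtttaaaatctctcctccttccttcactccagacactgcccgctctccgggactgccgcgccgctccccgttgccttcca

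The words searched, on both strands of the central 200 bases, were TGANTCA of AP-1, GGAATG of TEAD, GGG and TTTCC of NF-kB with any 2 bases between them, TTGCNNCAA of CEBP, TGTGGT of RUNX and the CArG box bound by SRF, which is CC and GG around 6 bases that are each A or T. The AP-1 word stood in 17.4% of member windows and 14.1% of all windows, and the TEAD word in 23.6% and 15.5%. The RUNX word was found in 15.5% against 16.4%, the CArG box in 2.48% against 1.13%, the NF-kB word in 1.24% against 0.946%, and the CEBP word in none of the member windows against 1.61% of all. In FBN1_peak_11 the RUNX word began at base 66 of the window. The other 3 peaks printed above and the LOX promoter held none of these letters, and a match or its lack is a description of the window only.

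The cytokine contrast asked what the pulses left behind, weeks after the last of them. Unstimulated cells are not clearly stated to have received solvent, so cytokines and solvent cannot be told apart in this contrast. Accessibility at the matrix and crosslinking loci was lower in DMSO than in unstimulated libraries, to an extent close to that of the typical gene. With TMM, 8 of the 10 loci fell (LOX, LOXL1, LOXL2, LOXL3, LOXL4, FN1, FBN1 and TNC) and none rose, where 62.5% of all loci fell and 10.9% rose. The median over the 10 loci was -0.32 on the log2 scale, beside -0.26 over all loci. With loess offsets none of the 10 fell and 1 rose, ELN, where 8.35% of all loci fell and 14.0% rose.

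Among the crosslinking enzymes LOXL1, an enzyme tied to elastic fibres, had the value farthest from 0 with TMM, whereas with loess offsets LOX (-0.14) and LOXL4 (-0.10) lay farther. Its locus held 7.27 to 7.68 log2 CPM in unstimulated libraries (median 7.45) and 6.98 to 7.33 in DMSO libraries (median 7.02). The groups overlapped in that DMSO 3 lay above the lowest unstimulated library. LOXL1 fell by 0.38 ± 0.08 on the log2 scale (SE, adjusted p = 0.00051), which is 0.12 below the median of all loci, and with loess offsets the difference was -0.09 (adjusted p = 0.0909).

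LOX, the founding member of the enzyme family, was measured by its start peak alone. The levels were 4.48 to 4.81 in unstimulated libraries (median 4.69) and 4.12 to 4.46 in DMSO libraries (median 4.32), and every DMSO library lay below every unstimulated one. The difference of -0.35 ± 0.10 passed the test with TMM (adjusted p = 0.00294). With loess offsets it was -0.14 (adjusted p = 0.179) when LOX was fitted among loci and 0.02 (adjusted p = 0.921) when the same peak was fitted among peaks.

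LOXL2, LOXL3 and LOXL4 differed by -0.28, -0.30 and -0.36 with TMM (adjusted p from 0.00117 to 0.00235), and LOXL4, the lowest of the 3 with loess offsets, then stood at -0.10. Relative to the median of all loci the TMM values were -0.02, -0.05 and -0.11.

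Fibronectin and fibrillin-1 moved by about as much. FN1 held 6.16 to 6.37 log2 CPM in unstimulated libraries (median 6.27) and 5.76 to 6.17 in DMSO libraries (median 5.90), so that DMSO 3 alone reached the unstimulated range. FBN1 held 7.76 to 8.03 (median 7.82) and 7.30 to 7.74 (median 7.53), without overlap. FN1 fell by 0.34 ± 0.08 (adjusted p = 0.000769) and FBN1 by 0.33 ± 0.08 (adjusted p = 0.000958), whereas with loess offsets the values were -0.05 and -0.04.

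Among the well covered loci ELN, the gene of the elastic core protein, had the smallest difference with TMM and the largest with loess offsets. Its levels were 5.68 to 6.02 in unstimulated libraries (median 5.94) and 5.73 to 5.93 in DMSO libraries (median 5.82), with wide overlap. The TMM difference was -0.09 ± 0.07 (adjusted p = 0.216), 0.17 above the median of all loci, and with loess offsets ELN rose by 0.19 ± 0.06 (adjusted p = 0.0271). TNC (chr9:115019575-115118207, minus strand) fell by 0.19 ± 0.07 with TMM (adjusted p = 0.0193), a call lost without unstimulated 1, 4 or 6 (adjusted p up to 0.0753), and gave 0.09 with loess offsets. POSTN, at the few counts it had, differed by -0.05 ± 0.49, which leaves a change of either sign undetectable at this depth.

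**Figure D2:**
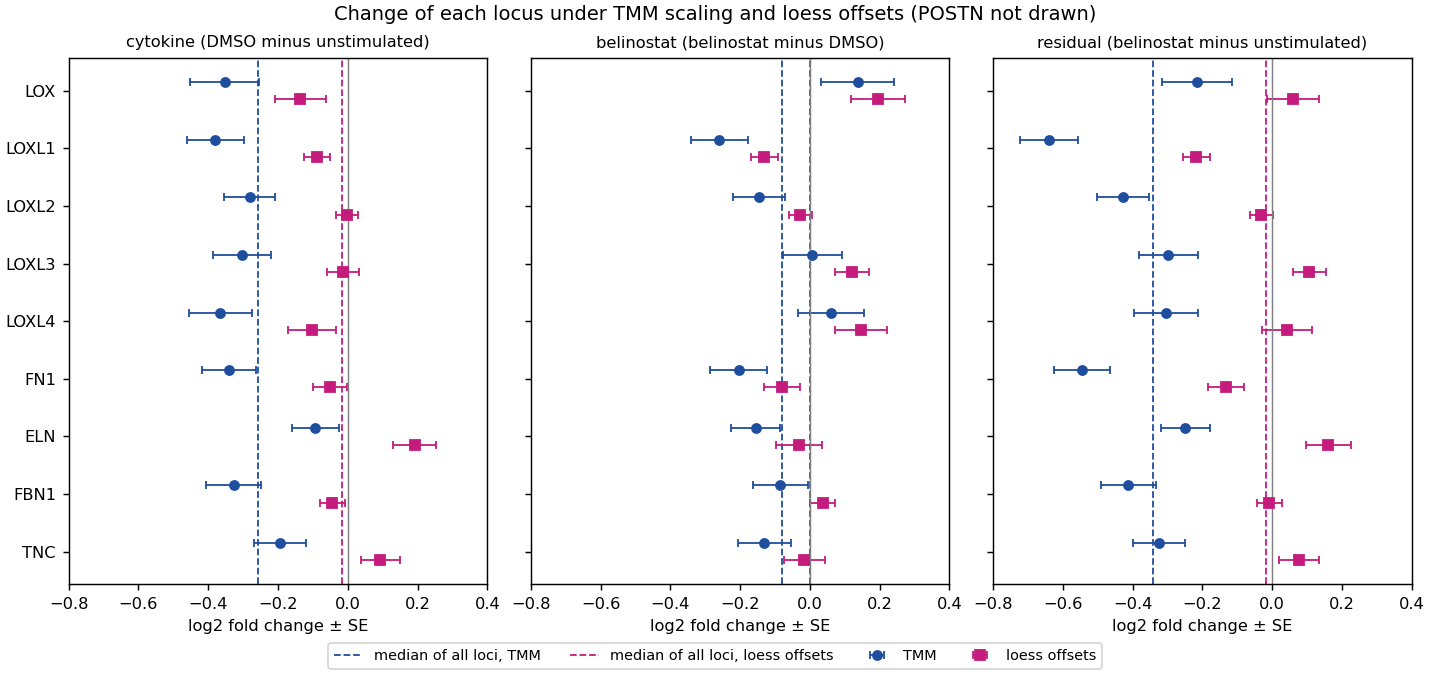
Log2 fold change ± SE of 9 loci in the 3 contrasts with TMM (circles) and loess offsets (squares), where dashed lines mark the median of all loci. With TMM the loci lie near the median of -0.26 in the cytokine contrast, and with loess offsets they lie between -0.14 and 0.19.

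Seen peak by peak, most strong member peaks fell in the cytokine contrast with TMM, a pattern absent with loess offsets. With TMM 29 of the 161 member peaks fell and 4 rose, beside 9.73% and 9.51% of all peaks. Without any adjustment 39 were lower and 7 higher at p under 0.05, beside 14.7% and 19.4% of all peaks. Of the 34 strong member peaks 24 fell, where 66.5% of all strong peaks did so. With loess offsets 2 fell and none rose, beside 1.9% and 2.0% of all peaks. Library totals in place of TMM gave 6 falls and 6 rises, beside 3.25% and 16.2% of all peaks, and TMM from the less accessible 50% of peaks gave 67 and 1, beside 25.2% and 2.24%. With TMM over all peaks the median of the strong member peaks was -0.35, next to -0.36 over all strong peaks. The 37 weak member peaks (average under 0) then had a median of 0.07 against 0.55 over all weak peaks. With loess offsets the strong pair was 0.01 and 0.003, and the weak pair -0.34 and 0.10. Among member peaks the number called lay between 19 and 35 when 1 library was left out, with 19 called without unstimulated 6, 20 without unstimulated 1 and 21 without DMSO 4.

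**Figure D3:**
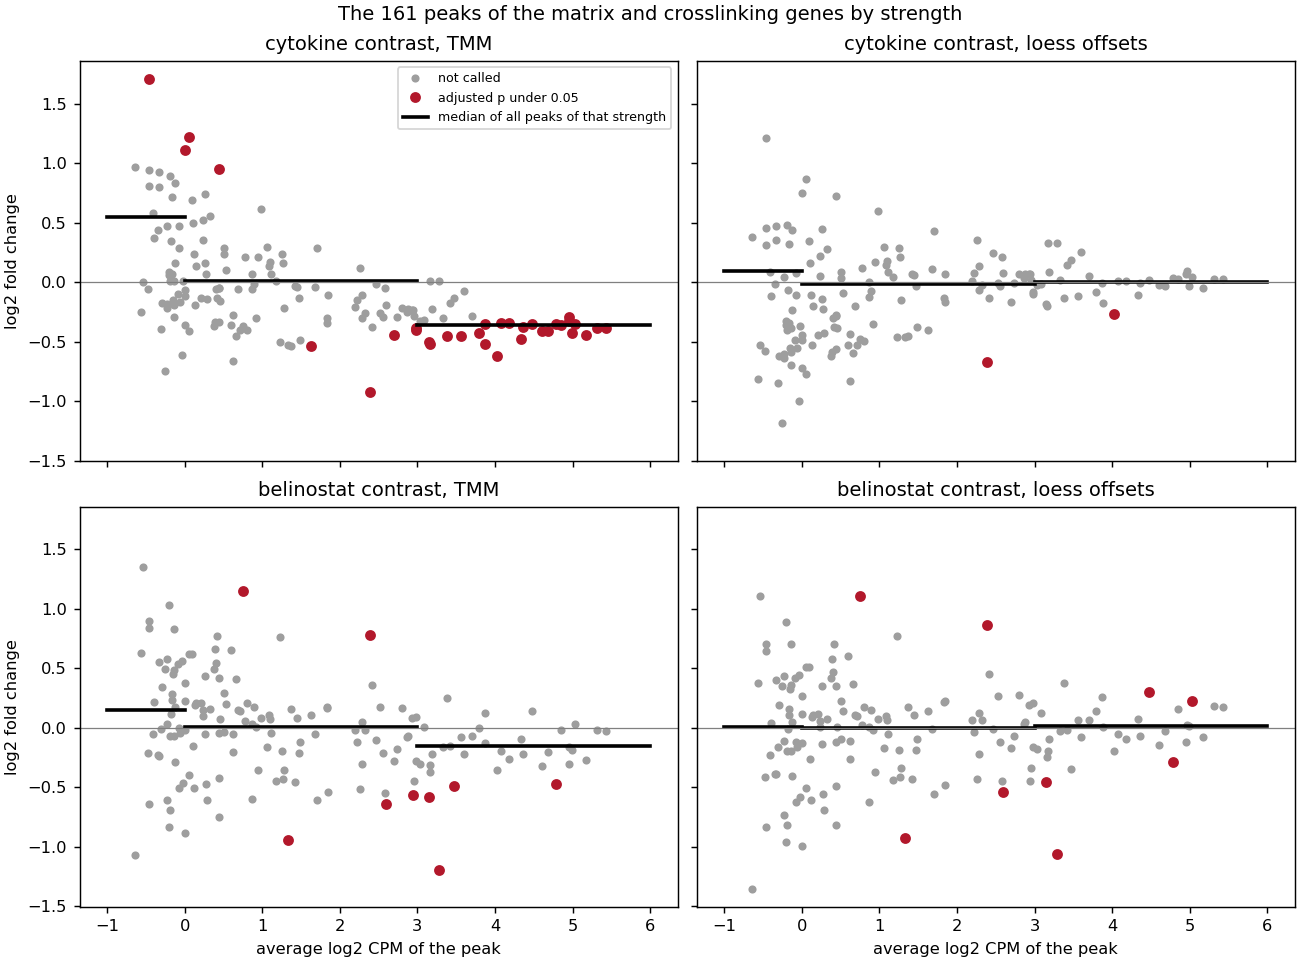
Log2 fold change of each of the 161 member peaks against its average log2 CPM, for 2 contrasts and 2 scalings, with called peaks in red and the median of all peaks of that strength as a black line. In the cytokine contrast with TMM the strong peaks follow the line at -0.36, and with loess offsets 2 peaks are called.

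Both peaks that fell with TMM and also with loess offsets lay in FBN1. FBN1_peak_37 (chr15:48611292-48611995, in intron 3, 33714 bp into the gene) held 2.29 to 3.03 log2 CPM in unstimulated libraries (median 2.75) and 1.02 to 2.26 in DMSO libraries (median 1.83). All DMSO libraries lay below all unstimulated ones. It fell by 0.92 ± 0.17 (adjusted p = 6.33e-05), or by 0.67 with loess offsets (adjusted p = 0.00707), and was called in all 8 alternative settings and in each of the 18 fits that left out 1 library.

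FBN1_peak_9 (chr15:48439967-48440616, in intron 50) held 4.36 to 4.69 in unstimulated libraries (median 4.47) and 3.34 to 4.06 in DMSO libraries (median 3.95), again without overlap. The lowest value belonged to DMSO 1. This peak fell by 0.62 ± 0.12 (adjusted p = 6.71e-05) and by 0.27 with loess offsets (adjusted p = 0.0402), with a call in all 8 settings and all 18 fits.

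The start peaks of the genes fell with TMM at LOX, LOXL1, LOXL2, LOXL3, FN1 and FBN1, by 0.35 to 0.44, and none of these calls held with loess offsets. That of LOXL2_peak_30 was also lost without unstimulated 1 or 6 (adjusted p of 0.0516 to 0.0652), and that of LOX_peak_1 without unstimulated 1 or DMSO 4 (up to 0.0766). Away from the starts, leaving out unstimulated 6 ended the calls of LOXL2_peak_12 (-0.29, adjusted p = 0.0668), LOXL2_peak_16 (-0.28, adjusted p = 0.0762), LOXL1_peak_11 (-0.27, adjusted p = 0.0851) and TNC_peak_9 (-0.43, adjusted p = 0.0535). Only this library did so for LOXL2_peak_16. The calls of LOXL2_peak_12, LOXL1_peak_11 and TNC_peak_9 were lost without any of 3, 5 and 6 libraries (adjusted p up to 0.0714, 0.0923 and 0.133). Leaving out unstimulated 6 brought LOXL4_peak_2 past the threshold (-0.49, adjusted p = 0.0383), as leaving out belinostat 1 did for FBN1_peak_11 (-0.53, adjusted p = 0.0463). FBN1_peak_11 was also called without unstimulated 2, DMSO 3 or DMSO 5. At FN1 the start peak FN1_peak_14 (chr2:215435425-215437016) held 5.38 to 5.62 in unstimulated and 4.94 to 5.28 in DMSO libraries, with medians of 5.54 and 5.02. The groups did not overlap, and the difference was -0.44 ± 0.10 (adjusted p = 0.00163) with TMM and -0.05 (adjusted p = 0.678) with loess offsets. The start peaks of LOXL4 and TNC did not pass the test (log2 differences from -0.23 to -0.30, lowest adjusted p = 0.094). Larger falls with TMM were found at LOXL1_peak_1, 3592 bp upstream of LOXL1 (-0.52, adjusted p = 0.00428), at LOXL4_peak_1 in the last exon of LOXL4 (chr10:98247690-98268194, minus strand; -0.52, adjusted p = 0.00172) and at TNC_peak_1 in intron 27 (-0.54, adjusted p = 0.0493). The call of TNC_peak_1 was lost in 11 of 18 fits that left out 1 library, with an adjusted p of up to 0.17. With loess offsets LOXL1_peak_1 gave -0.20 (adjusted p = 0.312), and LOXL4_peak_1 and TNC_peak_1 were not called either.

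The 3 ELN peaks that rose with TMM lay inside the gene and averaged 0 to under 3 log2 CPM. ELN_peak_16 (chr7:74054475-74054701, in intron 18) held -1.17 to 0.34 log2 CPM in unstimulated libraries (median -0.80) and -0.28 to 1.03 in DMSO libraries (median 0.35), with overlap. It rose by 1.22 ± 0.40 (adjusted p = 0.02), as did ELN_peak_9 in intron 4 by 1.12 (adjusted p = 0.0291) and ELN_peak_11 in intron 8 by 0.95 (adjusted p = 0.0233). None of the 3 was called with loess offsets (adjusted p from 0.168 to 0.243), and they kept their call in 16, 13 and 15 of 18 fits that left out 1 library. Both ELN_peak_9 and ELN_peak_11 lost it without unstimulated 6, and ELN_peak_16 without unstimulated 1. The remaining rise, FBN1_peak_30, was an FBN1 peak too weak for the naming rule (average log2 CPM -0.46) and is named after its values were seen. ELN_peak_18, the strongest ELN peak with 21.1% of the ELN counts, gave -0.08 with TMM (adjusted p = 0.707). It reached at most 0.25 in 8 alternative settings and was called in none. Which peaks carry the rise of the ELN locus with loess offsets was not tested.

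The belinostat contrast asked what the inhibitor changed in stimulated cells. No member locus was called with TMM, where 2.04% of all loci fell and 0.125% rose, or with loess offsets, where 2.63% fell and 2.61% rose. The locus values ran from -0.26 ± 0.08 at LOXL1 (adjusted p = 0.0859) to 0.14 ± 0.10 at LOX (adjusted p = 0.442), around a median of -0.08 over all loci. At an unadjusted p under 0.05, LOXL1, FN1 and ELN were lower, beside 18.4% of all loci. These counts turned on belinostat 1. Without it LOXL1 fell by 0.31 (adjusted p = 0.00758), FN1 by 0.25 (adjusted p = 0.0235) and LOXL2 by 0.19 (adjusted p = 0.0403). Of the peaks, FN1_peak_14 (-0.34, adjusted p = 0.0407) and LOXL1_peak_11 (-0.39, adjusted p = 0.0189) were then called too.

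The enzyme loci LOX and LOXL1 had the highest and the lowest value of the members with TMM over all libraries, and without belinostat 1 the value of LOX was 0.03 (adjusted p = 0.839). LOX held 4.18 to 4.93 log2 CPM in belinostat libraries (median 4.40), and the highest value, that of belinostat 1, lay above all DMSO libraries. LOXL1 held 6.53 to 7.05 (median 6.86), overlapping the lower DMSO libraries. Fitted among peaks with loess offsets, the LOX start peak rose by 0.30 ± 0.08 (adjusted p = 0.00927), and with TMM it gave 0.14 (adjusted p = 0.568). Whether the changes of LOX and LOXL1 differ was not tested.

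Peak by peak, 2 member peaks rose and 7 fell with TMM, beside 0.607% and 1.75% of all peaks. At an unadjusted p under 0.05 the numbers were 8 and 22, beside 8.21% and 7.68%. With loess offsets 4 rose and 5 fell, beside 0.945% and 1.51%, and 7 peaks were called both ways. With TMM over the weaker 50% of peaks 2 falls and no rise were left, beside 1.01% and 0.098%. Of the 34 strong member peaks 4 fell, where 9.81% of all strong peaks did. All 9 peaks called with TMM belonged to FBN1, LOXL2 and LOXL1, which together hold 93 of the member peaks.

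**Figure D4:**
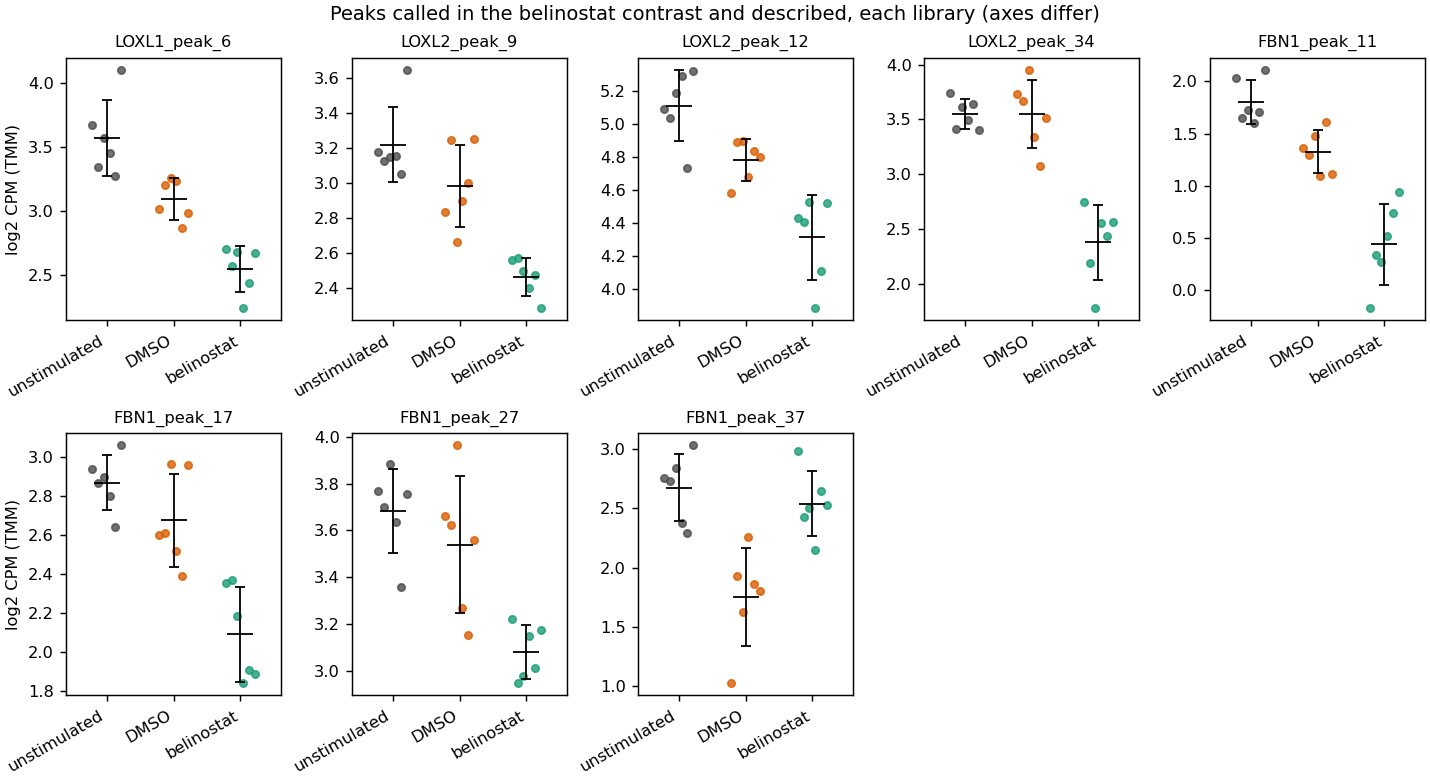
Accessibility in log2 CPM (TMM) of 8 of the 9 member peaks called in the belinostat contrast, 1 point per library, with the mean and SD of 6 libraries and an axis of its own for each peak. At LOXL2_peak_34 all belinostat libraries lie at or under 2.75 and all others at or over 3.08, and at FBN1_peak_37 DMSO libraries lie lowest.

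The largest fall was at LOXL2, the gene of a lysyl oxidase relative with activity on collagens (chr8:23296897-23425328, minus strand). LOXL2_peak_34 (chr8:23411082-23411807) lies 6962 bp upstream of the canonical start of LOXL2, in an intron of a longer LOXL2 transcript and of ENTPD4, so that the peak cannot be assigned to either gene. It held 3.41 to 3.74 log2 CPM in unstimulated libraries (median 3.55), 3.08 to 3.95 in DMSO libraries (median 3.59) and 1.78 to 2.75 in belinostat libraries (median 2.49). All 6 belinostat libraries lay below all 12 others. The peak fell by 1.19 ± 0.15 after belinostat (adjusted p = 1.29e-09), rank 63 of all 334857 peaks by p, and by 1.06 ± 0.13 with loess offsets (adjusted p = 8.56e-10). It was called in all 8 settings and all 18 fits that left out 1 library. After cytokines it gave 0.01 ± 0.13 (adjusted p = 0.947).

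Inside LOXL2 the canonical start (LOXL2_peak_30) showed no such difference, at -0.02 ± 0.11 (adjusted p = 0.944). LOXL2_peak_12 (chr8:23335820-23336786, in intron 4) held 4.58 to 4.90 in DMSO libraries (median 4.82) and 3.88 to 4.53 in belinostat libraries (median 4.42), without overlap. It fell by 0.47 ± 0.12 (adjusted p = 0.008), or by 0.29 with loess offsets (adjusted p = 0.0147), and lost the call without belinostat 4 (adjusted p = 0.0516). LOXL2_peak_9, at an internal annotated start in intron 8, fell by 0.56 ± 0.16 (adjusted p = 0.0252) with TMM and by 0.44 with loess offsets, where it missed the threshold (adjusted p = 0.0606). That call was lost without DMSO 2, DMSO 6 or belinostat 6. LOXL2_peak_16, the strongest LOXL2 peak, was called higher with loess offsets (0.22, adjusted p = 0.0406) and gave 0.03 with TMM.

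FBN1 held peaks that moved in both directions. FBN1_peak_37, the intron 3 peak that had fallen after cytokines, held 2.15 to 2.98 log2 CPM in belinostat libraries (median 2.51) against 1.02 to 2.26 in DMSO libraries. Only the lowest belinostat library lay below the highest DMSO library. The peak rose by 0.78 ± 0.18 (adjusted p = 0.00336), or by 0.87 ± 0.17 with loess offsets (adjusted p = 0.000289), in 7 of 8 settings and all 18 fits, and its residual difference from unstimulated libraries was -0.14 ± 0.16 (adjusted p = 0.55). The cytokine and belinostat values of this peak share the DMSO libraries and are not independent. DMSO 1 was the lowest of them at 1.02, and without any single library the rise stayed between 0.66 and 0.92.

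FBN1_peak_11 (chr15:48453714-48454206, in intron 44) ran the other way across the groups, with 1.60 to 2.11 in unstimulated libraries (median 1.72), 1.09 to 1.61 in DMSO libraries (median 1.33) and -0.17 to 0.94 in belinostat libraries (median 0.43). No belinostat library reached a DMSO library, and 1 DMSO library reached the lowest unstimulated one. The peak fell by 0.94 ± 0.27 after belinostat (adjusted p = 0.028; loess -0.92, adjusted p = 0.0322). In 6 of the 18 fits without 1 library the adjusted p was 0.0514 to 0.0686, namely without DMSO 3 or 5 or belinostat 1, 2, 3 or 4.

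FBN1_peak_17 (chr15:48493228-48494111, in intron 23) held 2.39 to 2.96 in DMSO libraries (median 2.61) and 1.84 to 2.37 in belinostat libraries (median 2.05). The groups did not overlap. It fell by 0.64 ± 0.17 (adjusted p = 0.0158; loess -0.54, adjusted p = 0.0308) and lost the call without DMSO 3 or 6 or belinostat 4, 5 or 6, with an adjusted p of up to 0.0788. FBN1_peak_27 in intron 6 fell by 0.49 ± 0.14 with TMM (adjusted p = 0.03), missed the threshold with loess offsets (-0.34, adjusted p = 0.0832) and kept its call in 11 of 18 fits. The start peak of FBN1, FBN1_peak_42, gave -0.02 ± 0.11 (adjusted p = 0.958).

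At LOXL1 the called peak lay in intron 1, 3993 bp into the gene. LOXL1_peak_6 (chr15:73930455-73931066) held 3.27 to 4.10 log2 CPM in unstimulated libraries (median 3.52), 2.86 to 3.26 in DMSO libraries (median 3.11) and 2.24 to 2.70 in belinostat libraries (median 2.62). The 3 groups did not overlap, each below the one before it. The peak fell by 0.50 ± 0.13 after cytokines (adjusted p = 0.00537; loess -0.18, adjusted p = 0.354), a call lost without unstimulated 6 (adjusted p = 0.0613). It fell by 0.58 ± 0.15 after belinostat (adjusted p = 0.0173; loess -0.46, adjusted p = 0.0366), a call lost without DMSO 2, DMSO 3 or belinostat 4 (adjusted p up to 0.0632).

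No peak of LOX, LOXL3, LOXL4, FN1, ELN, POSTN or TNC was called in the belinostat contrast with TMM. TNC_peak_10, at an internal annotated start in intron 14, came nearest, with 2.51 to 2.92 in DMSO libraries (median 2.65) and 1.76 to 2.40 in belinostat libraries (median 2.22). The groups did not overlap, and the difference of -0.55 ± 0.17 missed the threshold (adjusted p = 0.0574), which it passed without unstimulated 6 (adjusted p = 0.0492) or DMSO 4.

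**Figure D5:**
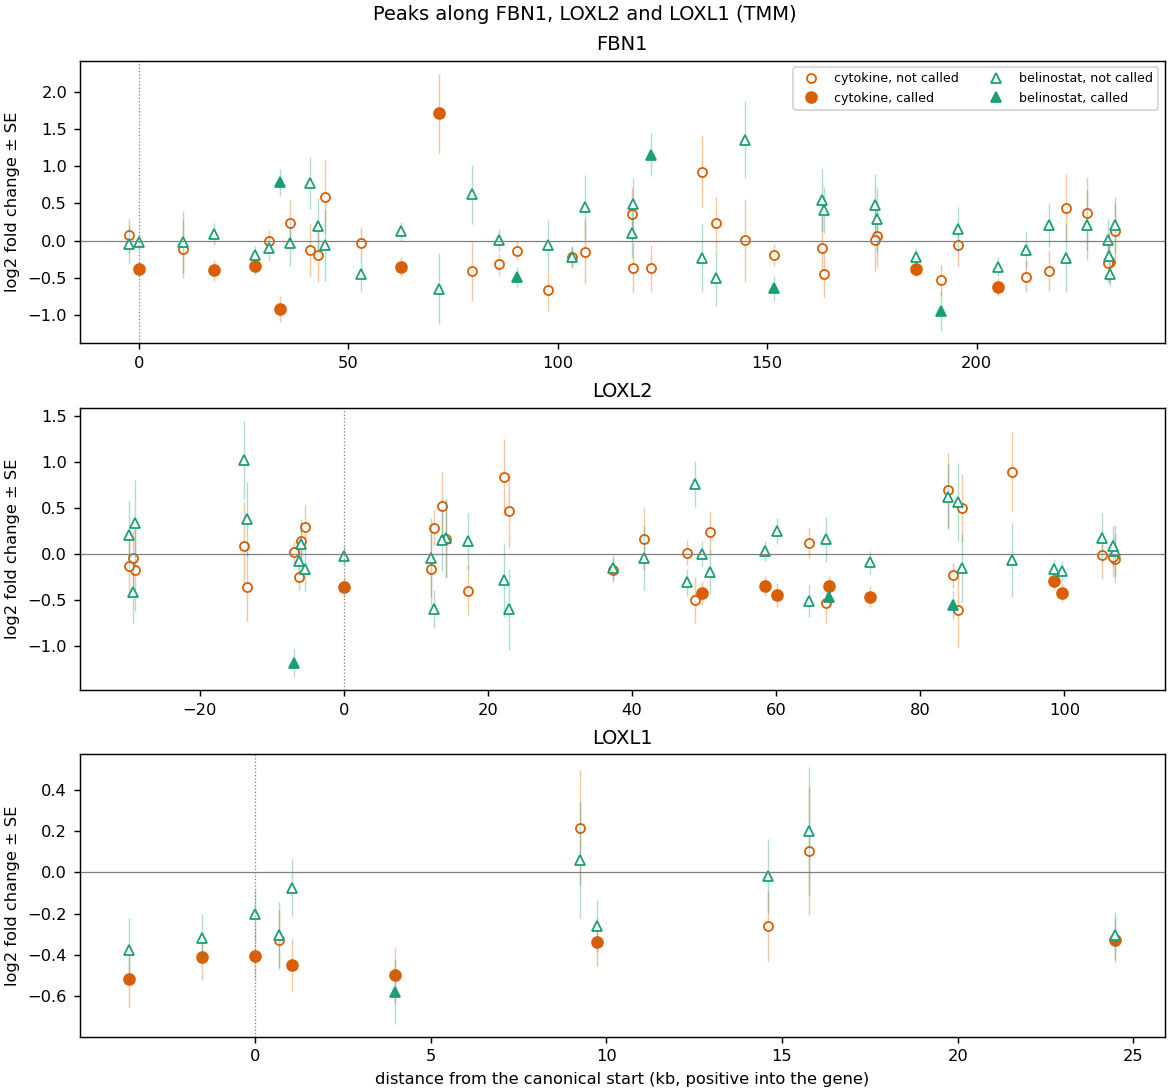
Log2 fold change ± SE (TMM) of the peaks of FBN1, LOXL2 and LOXL1 against distance from the canonical start in kb, with circles for the cytokine and triangles for the belinostat contrast and filled symbols for calls. The called FBN1 triangles point both ways along the gene, and the lowest LOXL2 triangle, at -1.19, lies upstream of the start.

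The residual contrast asked how far belinostat-treated cells stood from the unstimulated ones. With TMM 8 of 10 loci were lower and none higher, beside 66.8% and 13.0% of all loci. With loess offsets 2 were lower, LOXL1 and FN1, and none higher, beside 18.2% and 20.4%. LOXL1 differed by -0.64 ± 0.08 (adjusted p = 4.67e-07), percentile 2.13 of all loci, and by -0.22 ± 0.04 with loess offsets (adjusted p = 0.000114). All belinostat libraries, at 6.53 to 7.05, lay below all unstimulated ones, at 7.27 to 7.68. FN1 differed by -0.54 ± 0.08 (adjusted p = 1.9e-06) and by -0.13 with loess offsets (adjusted p = 0.0401), with belinostat libraries at 5.53 to 5.93 (median 5.73) and no overlap. LOX differed by -0.22 ± 0.10 (adjusted p = 0.0508). It was called without unstimulated 2, unstimulated 5 or belinostat 1, in the last case at -0.33 (adjusted p = 0.00104), and gave 0.06 with loess offsets.

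Of the member peaks 38 were lower and 9 higher with TMM, beside 13.7% and 16.8% of all peaks, and 10 were lower and 4 higher with loess offsets, beside 4.92% and 3.82%. Library totals gave 22 lower and 17 higher peaks, beside 6.31% and 30.4%, against 84 and 1 for TMM from the less accessible 50% of peaks, beside 30.9% and 2.64%. With TMM over all peaks, LOXL2_peak_16 (-0.25, adjusted p = 0.0825) and TNC_peak_21 (-0.30, adjusted p = 0.0879) lost their calls without unstimulated 6. These calls were lost without any of 3 and of 6 libraries (adjusted p up to 0.0825 and 0.114). Without belinostat 1, LOX_peak_1 (-0.32, adjusted p = 0.0142) and ELN_peak_18 (-0.34, adjusted p = 0.0355) were called lower. The lower ones with TMM took in 27 of the 34 strong member peaks, where 84.8% of all strong peaks were lower. With loess offsets the lower peaks included LOXL1_peak_6 (-0.64, adjusted p = 0.000132), LOXL1_peak_1 (-0.44, adjusted p = 0.0134), LOXL2_peak_34 (-0.73, adjusted p = 2.5e-05), FBN1_peak_11 (-1.38, adjusted p = 1.6e-05) and FBN1_peak_9 (-0.46, adjusted p = 0.000131). The higher ones were the start peaks of LOX (0.32, adjusted p = 0.00134), FBN1 (0.21, adjusted p = 0.0143) and LOXL3 (0.20, adjusted p = 0.0147) and LOXL2_peak_16 (0.27, adjusted p = 0.00193). With TMM these 4 peaks had differences of -0.21 to -0.41, so their direction rests on the scaling.

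Other genes of the same matrix were read from lists of elastic fibre proteins, of crosslinking and processing enzymes, of matricellular and adhesive glycoproteins and of integrins. All 45 had peaks. After cytokines 38 of the 45 fell and 1 rose with TMM, beside 62.5% and 10.9% of all loci, with a median of -0.30 beside -0.26. With loess offsets 6 fell and 5 rose, beside 8.35% and 14.0%, with a median of -0.04 beside -0.02. By list the falls with TMM numbered 13 of 16 elastic fibre loci, 9 of 10 enzyme loci, 9 of 11 glycoprotein loci and 7 of 8 integrin loci. The rise was at FBLN7, a fibulin with cell-adhesive activity, which held 3.90 to 4.28 in unstimulated libraries (median 4.19) and 4.28 to 4.84 in DMSO libraries (median 4.52). Their ranges touched, and the rise of 0.41 ± 0.09 (adjusted p = 0.000741) was 0.63 with loess offsets. FBLN5, which ties elastin to cells, fell by 0.53 ± 0.09 (adjusted p = 0.000148) and by 0.23 with loess offsets (adjusted p = 0.00262). SERPINH1, the collagen chaperone HSP47, fell by 0.42 and by 0.13 with loess offsets.

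After belinostat 3 of the 45 loci fell and none rose with TMM, beside 2.04% and 0.125% of all loci, and with loess offsets 4 fell and 2 rose, beside 2.63% and 2.61%. The medians were -0.09 and 0.02, beside -0.08 and 0.00. FBLN1, from the elastic fibre list, held 8.12 to 8.41 in DMSO libraries (median 8.19) and 7.81 to 8.09 in belinostat libraries (median 7.89), without overlap. It fell by 0.31 ± 0.06 (adjusted p = 0.00786). ITGA5, a chain of the main fibronectin receptor, fell by 0.35 ± 0.08 (adjusted p = 0.0146), with DMSO libraries at 6.01 to 6.28 and belinostat libraries at 5.59 to 5.99. MFAP4 fell by 0.30 ± 0.08 (adjusted p = 0.0404). The 3 kept their calls with loess offsets, at -0.19, -0.23 and -0.19. In the residual contrast 38 were lower and 1 higher with TMM, beside 66.8% and 13.0%, and 10 were lower and 5 higher with loess offsets, beside 18.2% and 20.4%.

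The protein-coding locus whose levels most resembled those of each member was taken by the root mean square difference of log2 CPM over 18 libraries, after removing each locus mean, among loci of similar level that share no peak with it. The closest were MAP3K7CL for FBN1 (0.04), ABCC4 for LOXL2 (0.05), TRMT1L for LOXL1 (0.05), STPG1 for LOXL3 (0.06), FOXD2 for FN1 (0.06), DIP2B for TNC (0.07), ARHGAP6 for ELN (0.07), C7orf31 for LOX (0.09) and SDF4 for LOXL4 (0.09). Among the members themselves FBN1 and LOXL2 were nearest to each other (0.06). These values describe 18 libraries that share their groups and their scaling. POSTN, at the sampling limit, was closest to CLEC4E at 0.44.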

How the data were processed

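Bulk ATAC-seq libraries of Ccd18-Co cells (18, in 3 groups of 6 by the labels) were analysed. The authors deposited raw counts, 1 number of fragments for each consensus peak in each library. Per the methods of the study, reads were aligned to hg38 with the ENCODE pipeline and peaks were called with MACS2. Peaks were merged across conditions, fragments were counted with csaw, and blacklisted regions were left out. The library names of the deposited counts carry marks of merging and of the removal of duplicates and mitochondrial reads. Handling of the transposase offset was not given in the sources used here. The authors scaled on background bins, which need reads, so TMM factors over peaks took their place. Differences in background between libraries can then pass into the counts. ChIPseeker 1.34.1 is named in the submitters' processing notes.

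Counts were tested with edgeR 4.0.16 (glmQLFit and glmQLFTest, legacy method) in R 4.3.3, with 1 mean per group and no covariate. The study's filter (average log2 CPM over -3) removed 0 peaks. Counts were also summed per protein-coding gene over its body and the 10 kb upstream. Standard errors are the log2 fold change divided by the root of the F statistic. The fits were checked on counts simulated with known changes. No group difference in the share of counts in strong peaks was built in, so this check cannot speak to the choice of scaling. Alternatives were library totals, TMM over the weaker 50% of peaks or in 10 kb bins, loess offsets (limma 3.58.1), a filter at 0, DESeq2 1.42.0, a replicate block, a 3 kb upstream limit, unshared peaks only and each library left out. Tables used Python 3.11.15, pandas 2.3.3 and numpy 2.4.6, sequences pysam 0.24.0 and figures matplotlib 3.10.9. Positions count from 1.

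Named were all members, and in each the start peak, the strongest peak and those with the smallest p in the cytokine and belinostat contrasts, every member peak called after belinostat, and the 5 largest called rises and falls after cytokines at an average log2 CPM no lower than 0. Partner genes were named only where called. Members, lists and tests were chosen with earlier results of these data known. Total counts set the precision, and with 6 libraries a group the standard errors include the spread between libraries. The values and sequence of 1 called member peak are not reported here.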

Additional observations from a re-analysis of the deposited data

Results flagged for a closer look

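Among the 30 groups of locus levels and the groups of the named peaks, 135 groups of 6 libraries in all, 13 held a library whose gap to its nearest neighbour exceeded the 95% limit of Dixon's test. Chance flags about 1 in 20 groups. All values are log2 CPM with TMM.

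Unstimulated 6 stood apart at 4 peaks. It held -1.81 at ELN_peak_9, where the other unstimulated libraries held -0.58 to 0.09, and 1.52 at LOXL4_peak_2, where they held 2.55 to 2.83. It was the highest of its group at LOXL2_peak_4 with 5.59 (others 5.17 to 5.30) and at LOXL2_peak_9 with 3.65 (others 3.06 to 3.18).

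Unstimulated 2 was the lowest of its group at the LOXL3 locus with 5.83 (others 6.06 to 6.18) and at LOXL4_peak_1 with 3.94 (others 4.22 to 4.36), and unstimulated 4 at FN1_peak_4 with 1.60 (others 2.00 to 2.23).

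DMSO 3 was the highest DMSO library at LOXL2_peak_16 with 5.11 (others 4.81 to 4.90) and at the LOXL2 start, LOXL2_peak_30, with 5.00 (others 4.60 to 4.74). DMSO 1 was the lowest at FBN1_peak_9 with 3.34 (others 3.88 to 4.06).

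Of the belinostat libraries, belinostat 5 was the lowest at ELN_peak_18 with 2.85 (others 3.39 to 3.62), belinostat 6 the lowest at TNC_peak_10 with 1.76 (others 2.17 to 2.40), and belinostat 2 the highest at TNC_peak_20 with 2.57 (others 2.05 to 2.24).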

How the results depend on the processing

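After cytokines the number of member peaks called, 33 with TMM, was 12 with library totals, 68 with TMM over the weaker 50% of peaks, 2 with loess offsets, 19 with DESeq2 and 19 to 35 with 1 library left out. After belinostat it was 9, with 2 for the weaker 50% and 6 to 11 with 1 library left out. In the residual contrast it was 47, with 85, 14 with loess offsets and 41 to 54. Of the 19 peaks called after cytokines with DESeq2, 18 fell and 1 rose, beside 18587 and 15215 of all 334857 peaks. Member loci called after cytokines numbered 8, with 2 for library totals, 1 for loess offsets and 7 to 8 with 1 library left out. After belinostat 0 were called, with 1 for library totals and 0 to 3 with 1 library left out. In the residual contrast 8 were called, with 4, 2 and 8 to 9. The member loci called with library totals were all lower. With that scaling 3712 of all 19180 loci were lower and 3621 higher after cytokines. After belinostat 615 were lower and 328 higher, and in the residual contrast 5650 and 4957. Partner loci called changed with loess offsets from 39 to 11, from 3 to 6 and from 39 to 15.

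Libraries with the same replicate number correlated at -0.198 to 0.106 in their deviations from the group means. Correlations between unlike numbers were not computed, so these values cannot settle whether the numbers pair the libraries. A replicate block gave 34, 9 and 48 peaks in the 3 contrasts and 8, 1 and 9 loci. These loci were all lower, where 12216, 1018 and 12889 of all 19180 loci were lower and 2154, 57 and 2517 higher. Of the member peaks 30, 7 and 39 were lower, beside 34536, 6230 and 46357 of all 334857 peaks. The higher ones numbered 4, 2 and 9, beside 32344, 1902 and 54150. The block with loess offsets, added after seeing the data, gave 2, 8 and 15 peaks and 1, 1 and 3 loci. Of these peaks 2, 5 and 11 were lower, beside 6473, 4705 and 15821 of all peaks. Higher were 0, 3 and 4, beside 6794, 2943 and 12208. Of the loci 0, 1 and 2 were lower, beside 1720, 481 and 3513 of all loci. Higher were 1, 0 and 1, beside 2862, 519 and 3948.

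Direction turned in 6 locus and 13 peak values called in either fit. It also turned in 35 values called in neither, among them residual LOX and, after belinostat, FBN1 and LOXL3. With loess offsets, and with loess offsets plus the block in brackets, the log2 differences were as follows. Residual LOXL3 gave 0.107 (0.107), LOXL4 0.043 (0.044), ELN 0.161 (0.167) and TNC 0.077 (0.082). Cytokine ELN gave 0.192 (0.196) and TNC 0.093 (0.096). Of the peaks after cytokines, FBN1_peak_42 gave 0.025 (0.020), LOXL1_peak_11 0.067 (0.070), LOXL2_peak_12 0.033 (0.032), LOXL2_peak_16 0.047 (0.049), LOXL2_peak_30 0.027 (0.030), LOXL3_peak_4 0.025 (0.027) and LOX_peak_1 0.017 (0.021). In the residual contrast FBN1_peak_42 gave 0.212 (0.213), LOXL2_peak_16 0.270 (0.269), LOXL2_peak_30 0.188 (0.190), LOXL3_peak_4 0.199 (0.198), LOX_peak_1 0.320 (0.323) and TNC_peak_21 0.123 (0.139). With library totals residual LOXL3 gave 0.001, residual ELN 0.056 and cytokine TNC 0.022. The cause was not tested. The other alternatives turned no value that was called in either fit. The 3 kb limit and the filter at 0 could give no value for POSTN, nor unshared peaks for LOXL3. Depth limits POSTN, with 55 counts in 18 libraries.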
